A study of Homo sapiens with 8 samples.

Results

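The response of PANC-1 cells to miR-30c-2-3p was measured on 1 dual-channel Agilent array. PANC-1 is a cell line established from a human pancreatic ductal carcinoma. The Cy5 channel held RNA of PANC-1 cells transfected with miR-30c-2-3p using Lipofectamine RNAiMAX, and the Cy3 channel held RNA of PANC-1 cells labelled as mock without transfection. The labels do not say whether the mock cells received the lipid reagent, and no negative control miRNA is on the array. The members were all probes other than controls that were well above background in at least 1 channel, 27073 of 58201 probes on the array. They were read as genes, each gene name through its brightest probe, which gave 20703 of 43317 gene names on the array. Over the whole series, 24886 gene names were detected on at least 1 array. The series has 8 such arrays, each with a different miRNA, and 3 of the others were also made with PANC-1 cells against mock, for miR-30c-5p, miR-30a-5p and miR-30a-3p. With 1 array per miRNA there was no replicate, so no value below has an error across cultures and no test could be made. A fixed size was used instead: genes with a log2 ratio of Cy5 over Cy3 of -1 or below were called at least 2-fold lower, and those of 1 or above at least 2-fold higher. In RNA of whole cultures, fewer cells of a kind and less RNA per cell cannot be told apart.

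MicroRNAs are short RNAs that guide Argonaute proteins to partly complementary messenger RNAs, which are then degraded or translated less. The seed, bases 2 to 8 of the mature strand, sets most of this pairing. Each precursor gives a 5p and a 3p strand. In the miR-30 family the 5p strands are the guide strands, and the 3p strands have usually been treated as passenger strands. A passenger strand has its own seed, and so its own possible targets. XBP1, TRADD, CCNE1 and EPAS1 have been described as targets of miR-30c-2-3p in other cells.

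The mature strands transfected on the PANC-1 arrays are printed below with the seed in capitals, since the seeds separate the strand on this array from the other 3. The miR-30c-1-3p strand was not transfected and is added because it has the same seed as miR-30c-2-3p. All were read from RefSeq tables of build GRCh38.p14, where miR-30c-2-3p lies at chr6:71376964-71376985 on the minus strand.
miR-30c-2-3p: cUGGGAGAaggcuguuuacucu
miR-30c-1-3p: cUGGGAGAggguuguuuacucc
miR-30c-5p: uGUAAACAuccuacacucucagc
miR-30a-5p: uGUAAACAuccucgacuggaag
miR-30a-3p: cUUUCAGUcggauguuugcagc
The guide strands miR-30c-5p and miR-30a-5p have the same seed as each other, and both 3p strands differ from it and from each other. The array has no probe for the mature miRNAs, so the amount of miR-30c-2-3p in the cells was not measured.

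Markers of the labelled cell line and of other cells were read in the mock channels. All 5 pancreatic duct markers (KRT7, KRT8, KRT18, KRT19 and SOX9) and all 3 mesenchymal markers (VIM, CDH2 and ZEB1) were well above background in the 4 PANC-1 mock channels. The duct markers do not single out this line, since all 5 were also above background in the 4 mock channels of the colon carcinoma line HCT116, where KRT7 was higher (10.46 to 12.43, against 9.18 to 9.49 in PANC-1, log2 intensity). VIM was at 15.45 to 15.87 in PANC-1 and 6.11 to 7.15 in HCT116, and CDH2 was above background in no HCT116 mock. Of 5 colon line markers, CDX1, CDX2 and EPCAM were above background in all 4 PANC-1 mocks. Of the 4 acinar markers on the array, CELA3A was above background in these channels, at a low 5.99 to 6.13, and PRSS1, CPA1 and PNLIP were in none. No islet marker was above background in all 4 channels. Of the markers of cells that the culture should not hold, 2 of 3 for white blood cells, 1 of 3 for endothelium and 1 of 3 for fibroblasts were above background in all 4, while CD3E, PECAM1, DCN and LUM were in none. Spots that repeat a probe differed in log2 ratio with a median SD of 0.0393 (300 probes, 10 spots each), which is the error of the hybridisation and not of the cells. No spot was saturated.

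To determine how far the transcriptome moved, the genes past the fixed size were counted. With miR-30c-2-3p, 857 of the 20703 detected genes were at least 2-fold lower than mock, which is 4.14%, and 354 were at least 2-fold higher, which is 1.71%. At least 4-fold lower were 79 genes, and at least 4-fold higher were 35. The median log2 ratio over all detected genes was 0.013, with quartiles at -0.20 and 0.19. Restricting the count to genes with a symbol whose signal cleared the background in both dyes left 13951 genes, of which 813 were lower (5.83%) and 325 were higher (2.33%). Higher genes were 29.2% of all genes past the fixed size. The split depended on the scaling: they were 43.7% of them by the scanner's own log ratio (2452 lower and 1907 higher) and 55.6% when the ratios were centred on the median with no loess (574 lower and 718 higher). The gene just short of the lower limit was GPRC5B, at -0.9996.

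**Figure D1:**
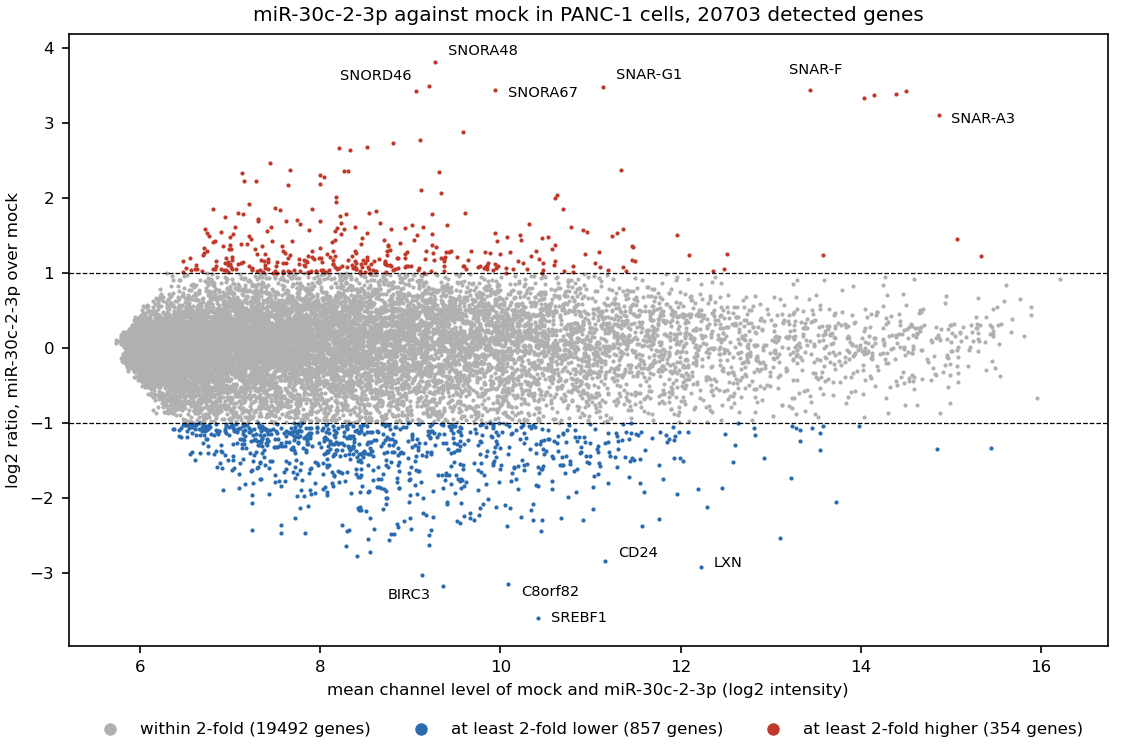
Each point is a detected gene on the miR-30c-2-3p array. The x axis is the mean level of both channels (log2 intensity), the y axis the log2 ratio of miR-30c-2-3p over mock, and the dashed lines mark 2-fold. The 857 lower genes (blue) run down to SREBF1 at -3.60, and the 354 higher genes (red) run up to SNORA48 at 3.83.

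The lower genes lay mostly in the brighter part of the array. Detected genes were divided by level into 5 bins of nearly equal size. In the dimmest bin 0.0241% were at least 2-fold lower and 0.0966% were higher, and in the brightest bin 9.76% were lower and 2.13% were higher. The share of all detected genes, 4.14% lower and 1.71% higher, is the background for the counts of list members below. The offset added to the signals draws the ratios of dim genes towards 0. Of the lower genes, 270 had at least 2 detected probes, and in 221 of these (81.9%) all probes lay below 0, but in only 43 (15.9%) were all probes at least 2-fold lower. For higher genes the same numbers were 107, 86 (80.4%) and 13 (12.1%). A gene's value is thus that of its brightest probe, and other transcripts of the gene may differ.

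The lower genes were compared with the other PANC-1 channels, after the channel levels had been brought to 1 scale. Since the genes had been chosen by the same miR-30c-2-3p level, the counts are a description and support nothing. Of the 857 lower genes, 806 (94.0%) had a lower level with miR-30c-2-3p than with each of the other 3 miRNAs. Among all detected genes 6261 (30.2%) had such a level. All 4 mock channels were above the miR-30c-2-3p level in 853 of the lower genes (99.5%). Of the 354 higher genes, 339 (95.8%) were above the other 3 miRNAs, against 8304 (40.1%) of all detected genes. All 354 were above the 4 mock channels. The mock channel of this array differed by 2-fold or more from that of the miR-30c-5p array in 9 genes, from that of miR-30a-5p in 46 and from that of miR-30a-3p in 50. The SD of these mock differences over the detected genes was 0.088 to miR-30c-5p, 0.17 to miR-30a-5p and 0.18 to miR-30a-3p (log2). Values given below against the mean of the other 3 miRNA channels can thus also hold differences that the mock channels show. The labels do not say whether mock RNA was shared between arrays.

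The 12 lowest named genes had log2 ratios from -3.60 to -2.55. The lowest of all detected genes was SREBF1, which encodes the transcription factor SREBP-1 that drives the genes of fatty acid synthesis. Its level was 12.19 in the mock channel and 8.65 with miR-30c-2-3p (log2 intensity), a log2 ratio of -3.60 or 12.1-fold. In the other arrays its mock levels were 11.37 to 12.09 and its levels with the other miRNAs 10.64 to 11.57, so the miR-30c-2-3p channel lay apart from all of them. The brightest SREBF1 probe lies at chr17:17715419-17715478 (hg19, minus strand). The other detected SREBF1 probe stood at -0.05, so the decrease was seen on only 1 of the 2 probes.

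BIRC3, a ubiquitin ligase that takes part in TNF receptor signalling and is itself induced by NF-kB, was at -3.18, or 9.06-fold lower. Its mock level here was 10.90 and its level with miR-30c-2-3p was 7.83, while the other 3 miRNA channels lay at 9.84 to 11.76. Next came C8orf82 at -3.14 and DUSP23, a small phosphatase, at -3.02. The DUSP23 levels were 10.58 in mock and 7.67 with miR-30c-2-3p, and the other 6 PANC-1 channels lay within 10.48 to 10.74. LXN, which encodes the carboxypeptidase inhibitor latexin, was at -2.92, with a level of 13.71 in mock and 10.75 with the miRNA. CD24, a heavily glycosylated surface protein, was at -2.84, although its probe is placed by the array design on chromosome Y, where a copy of CD24 lies, and the copies cannot be told apart.

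The other named lower genes were ZMIZ2 at -2.77, UGDH at -2.73, B4GALNT1 at -2.64, RAB26 at -2.63, CDC45 at -2.56 and FAM27C at -2.55. ZMIZ2 encodes a transcriptional coactivator of the PIAS type, UGDH makes UDP-glucuronate, B4GALNT1 makes the gangliosides GM2 and GD2, and RAB26 is a small GTPase of secretory vesicles. In ZMIZ2 the miR-30c-2-3p level was 7.07, against 9.74 in its mock and 10.30 to 10.41 with the other 3 miRNAs. In every one of these 12 genes the miR-30c-2-3p channel had the lowest level of the 8 PANC-1 channels. The genes were chosen by a low ratio on this array, so this order is a description and supports nothing. Among all detected genes 6261 (30.2%) lay below the other 3 miRNA channels.

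**Figure D2:**
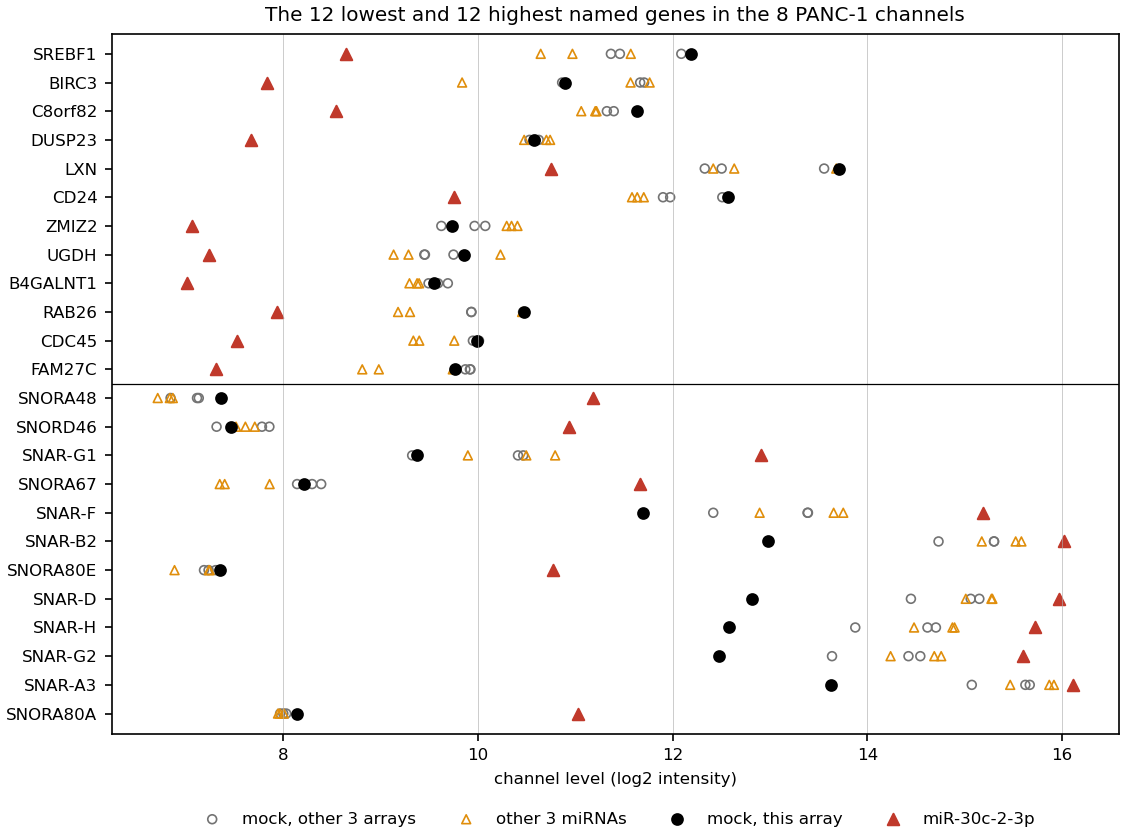
Levels (x axis, log2 intensity) of the 12 lowest and the 12 highest named genes in the 8 PANC-1 channels, with 1 point per channel. Filled symbols are this array (circle mock, triangle miR-30c-2-3p) and open symbols the other 3 arrays. For the lower genes the filled triangle is left of all other points, and for the SNAR RNAs other than SNAR-G1 the filled circle is left of all open circles. The genes were chosen by their ratio on this array.

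The genes of fatty acid and lipid synthesis lay below mock in 21 of 26 detected members, with a median log2 ratio of -0.45. At least 2-fold lower were 4 members (15.4%, against 4.14% of all detected genes and 9.76% of the brightest bin), SREBF1, FASN, FADS2 and SCD, and GPAM was higher. FASN, the fatty acid synthase, had a level of 11.23 in mock and 8.92 with miR-30c-2-3p, a log2 ratio of -2.37. In the other arrays FASN lay between 10.63 and 11.32 in all 6 channels. FADS2, the desaturase that opens the path to long polyunsaturated fatty acids, was at -2.29, with 12.03 in mock and 9.81 with the miRNA. SCD, which makes oleate and palmitoleate, was at -1.76, with 9.43 in mock and 7.75 with the miRNA, and its other mock levels were lower, at 8.20 to 8.86. Against the mean of the other 3 miRNA channels FASN was at -1.92, FADS2 at -1.51 and SCD at -0.96.

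Other enzymes of the same route were lower by less than 2-fold. ACACA, the acetyl-CoA carboxylase that commits carbon to fatty acids, was at -0.72, ACLY, which supplies the acetyl-CoA, at -0.62, and FADS1 at -0.66. GPAM, the acyltransferase of the glycerolipid path, was at 1.16, although its other probe was at 0.34. On the other arrays SREBF1 was at -1.09 (miR-30c-5p), -0.74 (miR-30a-5p) and 0.07 (miR-30a-3p), and the list medians were 0.07, -0.02 and 0.09 in that order.

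The cholesterol genes, which are mainly driven by the related factor SREBP-2, had a median of 0.12 over 28 detected members. LSS, lanosterol synthase, was the 1 member at least 2-fold lower, at -1.20, and no member was higher by that much. LSS had a second detected probe at -0.10. It was also low after miR-30a-3p, at 8.35 against 9.51 in the mock of that array, and 8.64 after miR-30c-2-3p (log2 intensity). SREBF2 itself was at 0.20 and HMGCS1 at 0.84.

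TNF receptor and NF-kB genes were mostly below mock. TNF receptors recruit TRADD and RIPK1 and so activate the NF-kB factors, which in turn induce their own inhibitors and many cytokines. Of 19 detected members of the signalling list, 16 lay below 0, 3 were at least 2-fold lower (15.8%, against 4.14% of all detected genes and 9.76% of the brightest bin) and 0 were higher, with a median of -0.42. RELB, the NF-kB subunit of the noncanonical branch, was at -2.50, with 10.41 in mock and 8.01 with miR-30c-2-3p. Its other 6 PANC-1 levels lay between 10.35 and 11.29. TRADD, the adaptor that binds the TNF receptor and 1 of the described targets, was at -1.73. Its level was 9.68 in mock and 8.02 with miR-30c-2-3p, against 9.75 to 9.91 in the other mock channels and 9.97 to 10.05 with the other miRNAs. TAB2, an adaptor of the kinase TAK1, was at -1.098, with its other probe at -0.43. RELA was at 0.38, NFKB1 at -0.20 and NFKB2 at -0.72.

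Of the 19 detected NF-kB target genes, 9 were at least 2-fold lower (47.4%, against 4.14% of all detected genes and 9.76% of the brightest bin) and 0 were higher, with 17 of 19 below 0 and a median of -0.77. The median was -0.28 with no filter on dim probes and -1.05 against the mean of the other miRNA channels. Besides BIRC3 these were CCL2 and CXCL1, which encode chemokines, NFKBIA, which encodes the inhibitor IkBa, and TNFAIP2, TNIP1, BCL3, LIF and LTB. CCL2 had 8.74 in mock and 6.38 with miR-30c-2-3p, a log2 ratio of -2.47, and CXCL1 had 8.41 and 6.07, or -2.43. The second CXCL1 probe was at -0.88. The miR-30c-2-3p channel was the lowest of the 8 PANC-1 channels in both, but their mock levels differed between arrays. In the mocks of miR-30c-5p, miR-30a-5p and miR-30a-3p, CCL2 was at 8.71, 10.66 and 10.69, and CXCL1 at 8.41, 9.92 and 9.82. Comparison with the other miRNA channels, as in the list median of -1.05, can thus also hold such mock differences. NFKBIA was at -1.61, with a spot called an outlier on this array, and the others were at -1.32 for TNFAIP2, -1.29 for TNIP1, -1.16 for BCL3, -1.14 for LIF and -1.09 for LTB. LTB had a level of 5.90 with the miRNA, near the floor of the array. On the scanner's own log ratio CXCL1 was at -4.47, CCL2 at -3.76 and LTB at -3.64. Not past the size were ICAM1 at -0.10, SOD2 at -0.01, TNFAIP3 at -0.43 and NFKBIB at 0.58. The medians of this list on the other arrays were 0.45 for miR-30c-5p, 0.10 for miR-30a-5p and -0.40 for miR-30a-3p.

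ATF4 is the transcription factor of the amino acid response. Of 21 detected members of the list of ATF4 and its targets, 7 were at least 2-fold lower (33.3%, against 4.14% of all detected genes and 9.76% of the brightest bin), 1 was higher, and 13 were not past the size. The median was -0.62, and -0.40 against the mean of the other miRNA channels. ATF4 itself was at -1.53, with 13.35 in mock and 11.82 with miR-30c-2-3p, below its other 6 levels of 12.79 to 13.31. DDIT4, an inhibitor of mTORC1, was at -2.17, ASNS, asparagine synthetase, at -1.92, SHMT2, the mitochondrial serine hydroxymethyltransferase, at -1.74, TRIB3 at -1.44, ATF5 at -1.28 and CHAC1 at -1.098. ASNS had 12.54 in mock and 10.65 with the miRNA, and 11.83 to 12.71 elsewhere. ATF3 was the exception at 1.84, but it was also higher with miR-30c-5p (1.54) and miR-30a-3p (1.43), and its 4 detected probes ran from 0.05 to 1.84. Against the mean of the other 3 miRNA channels ATF3 was at 0.01, TRIB3 at -0.80 and ATF5 at -0.73. DDIT3, the CHOP factor, was at 0.02.

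The chaperones and folding factors of the endoplasmic reticulum had a median of 0.12 over 23 members, of which 0 were lower. Higher were 2 (8.70%, against 1.71% of all detected genes), DNAJB9 at 1.59 and ATF6 at 1.11. DNAJB9 had 9.56 with miR-30c-2-3p, but it was also above mock with the other miRNAs, at 8.67 to 8.93 against 7.78 to 8.10 in the 4 mock channels. HSPA5, the main luminal chaperone, was at -0.74. XBP1, another described target, was at -0.15. The list median was -0.0032 against the mean of the other miRNA channels.

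Interferon-response genes were at a median of -0.34 over 29 members, with 5 at least 2-fold lower (17.2%, against 4.14% of all detected genes) and 0 higher. The median was -0.17 against the mean of the other miRNA channels. OASL, an antiviral protein of the oligoadenylate synthetase family, was at -2.41, with 9.75 in mock and 7.43 with the miRNA. IFIT2 and IFIT3, which bind RNA in complexes, were at -2.15 and -1.95. ISG20, an exonuclease, was at -1.42, and IFIH1, the sensor MDA5, at -1.11. ISG15 was at 0.10 and IFI27 at 0.76, so the direction was not shared by all members. The same 5 genes were at -0.86 to -1.24 with miR-30a-3p.

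**Figure D3:**
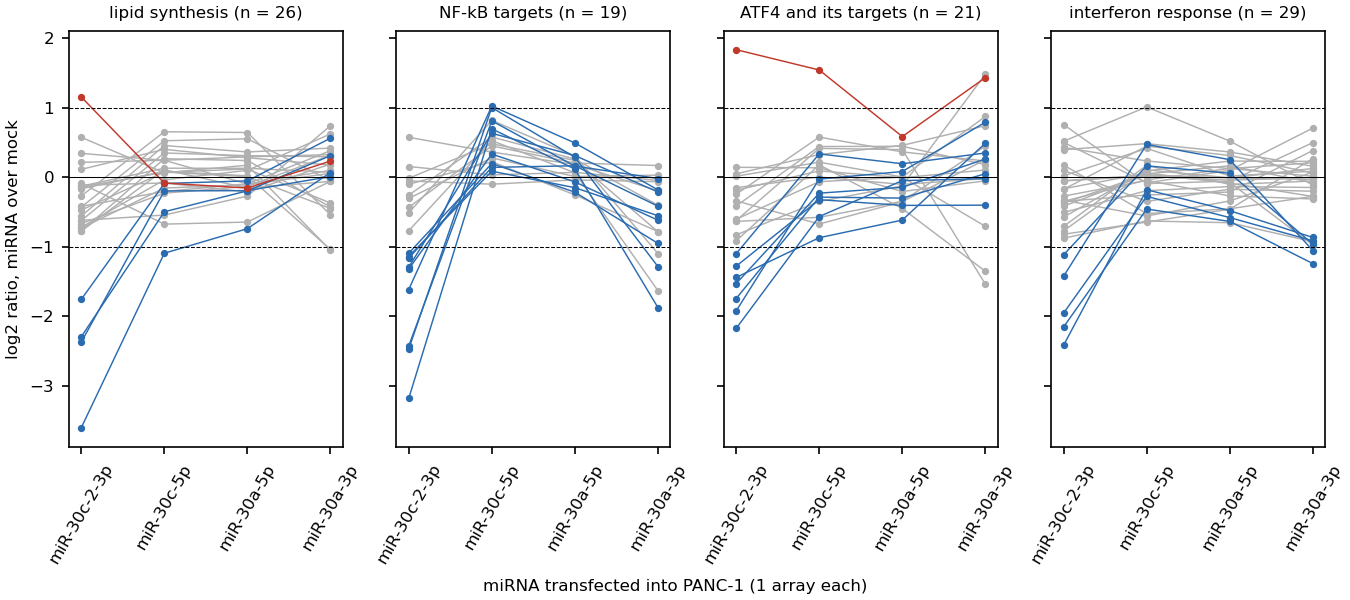
Log2 ratios of miRNA over mock (y axis) of 4 gene lists on the 4 PANC-1 arrays (x axis), with 1 line per gene detected on the miR-30c-2-3p array. Lines only join the values of a gene. Blue genes were at least 2-fold lower with miR-30c-2-3p and red genes at least 2-fold higher. The 9 blue NF-kB target genes lie below -1 with miR-30c-2-3p and all above 0 with miR-30c-5p.

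Of the 4 targets described in other cells, TRADD and CCNE1 were at least 2-fold lower, and XBP1 (-0.15) and EPAS1 (0.08) were not. CCNE1, the cyclin that activates CDK2 at the start of S phase, was at -1.52, with 10.22 in mock and 8.75 with miR-30c-2-3p. The other mock channels had 10.24 to 10.69 and the other miRNA channels 11.42 to 11.56, so that CCNE1 lay below its mock here and above its mock on the 3 other arrays. These 4 genes were listed because of their earlier description, and XBP1, TRADD, CCNE1 and EPAS1 also count in other lists here.

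Cell cycle lists had members past the size in both directions. The G1/S list had a median of 0.09 over 20 members, with E2F2 at -1.72 and CCNE1 lower and the inhibitor CDKN2D higher at 1.26. CDKN1B, which encodes the CDK inhibitor p27, was at 0.94. The 42 DNA replication genes had a median of 0.01, with 5 lower (11.9%) and 4 higher (9.52%). Among all detected genes 4.14% were lower and 1.71% higher, and in the brightest bin 9.76% and 2.13%. Lower were CDC45, a part of the replicative helicase, at -2.56, POLD1, the catalytic subunit of polymerase delta, at -1.42, LIG1 at -1.35, GINS3 at -1.13 and MCM6 at -1.002. Higher were RFC5, a part of the clamp loader, at 1.37, ORC6 at 1.18 and the single-strand binding subunits RPA2 at 1.03 and RPA3 at 1.02. CDC45 levels were 9.99 in mock, 7.52 with miR-30c-2-3p and 9.34 to 10.01 elsewhere. The 31 mitosis genes had a median of 0.24, which was 0.56 with median centring and 0.67 against the mean of the other miRNA channels. TOP2A was lower at -1.01, and CDC25C and OIP5 were higher at 1.30 and 1.16. TOP2A had 8.24 with miR-30c-2-3p, 8.64 to 8.76 with the other miRNAs and 8.97 to 9.21 in the 4 mock channels. On the other arrays the mitosis median was 0.04 for miR-30a-3p, -0.42 for miR-30c-5p and -0.40 for miR-30a-5p. The median of the p53 targets was -0.20 over 16 members, with GDF15 at -1.45 and CDKN1A, which encodes p21, at -0.19.

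In the BCL2 and IAP families the median was -0.01 over 19 members, and 4 members were lower, against 4.14% of all detected genes, and 0 higher. The median was 0.092 with median centring. Besides BIRC3 these were BCL2A1, an inhibitor of apoptosis, at -1.37, the effector BAK1 at -1.09 and the activator BID at -1.03. The lower members thus held both inhibitors and promoters of cell death. MCL1 was at -0.20, BCL2L1 at 0.33 and XIAP at 0.09.

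Epithelial genes had a median of -0.21 over 17 members. Lower were 4 (23.5%, against 4.14% of all detected genes and 9.76% of the brightest bin) and higher were 0. KRT19, a keratin of ductal epithelium, was at -2.06, with 14.82 in mock and 12.62 with miR-30c-2-3p. Its levels with the other miRNAs were 12.86 to 14.00, against which it was at -0.91. The splicing factor ESRP2 was at -1.61, with a spot called an outlier, and the tight junction genes CLDN7 and CLDN4 were at -1.54 and -1.35. CDH1, which encodes E-cadherin, was at -0.52, and KRT80, a keratin followed by the study, was at 0.78. KRT80 was at -0.16 against the mean of the other miRNA channels. Of 10 mesenchymal genes 9 lay below 0, with a median of -0.47, which was -0.11 against the mean of the other miRNA channels, and VIM was the 1 member past the size, at -1.35. VIM was also lower with miR-30c-5p (-1.63) and miR-30a-5p (-1.65), and at -0.04 against the mean of the other miRNA channels.

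Genes of the matrix and adhesion had medians near 0. Collagens and their crosslinking enzymes had a median of -0.07 over 18 members, which was 0.094 with median centring and 0.020 against the 4 mock channels. COL1A1 was at -1.28, and COL5A1 was at 1.08 but at -0.13 against the mean of the other miRNA channels. Among plasminogen activators and matrix proteases the median was -0.03 over 11 members. PLAU, which encodes urokinase, was at -1.94 with its second probe at -1.23. PLAU was at -2.48 with miR-30a-3p. Integrins had a median of -0.15 over 10 members, which turned to 0.029 with median centring. ITGA3 was at -1.17, and ITGB4 was past the size too but was not well above background in the miR-30c-2-3p channel.

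Among growth factor receptors and RAS signalling genes the median was -0.08 over 29 members, which turned to 0.080 with median centring. AKT1, the kinase downstream of PI3K, was at -1.53, AXL, a receptor tyrosine kinase, at -1.32 and ERBB2 at -1.102, and 0 members were higher. A second ERBB2 probe was at 0.15. EGFR was at -0.67. Of 19 immediate early genes 3 were lower (15.8%, against 4.14% of all detected genes and 9.76% of the brightest bin), with a median of -0.16. Those were MYC at -1.70, KLF6 at -1.17 and JUN at -1.11, and the ERK phosphatase DUSP6 was higher at 1.20. DUSP6 had 9.45 with miR-30c-2-3p, 8.81 to 8.87 with the other miRNAs and 8.28 to 8.50 in the 4 mock channels. MYC had 10.13 in mock and 8.49 with miR-30c-2-3p, and 9.88 to 10.36 elsewhere. In the YAP list the median was 0.23 over 11 members, with AXL alone past the size.

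The glycolysis genes had a median of -0.25 over 19 members, which turned to 0.088 with median centring, and 0 members were at least 2-fold apart in either direction. HK2, a hexokinase followed by the study, was at -0.97 here, -2.06 on the scanner's own log ratio, 0.56 with both guide strands and -0.17 with miR-30a-3p. The hypoxia genes had a median of 0.09 over 20 members, which was -0.22 against the mean of the other miRNA channels. VEGFA was at -1.40 with a second probe at -0.56, SLC2A1, the glucose transporter GLUT1, was at -1.29, and EGLN1, a HIF prolyl hydroxylase, was at 1.06.

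The medians of large housekeeping groups depended on the scaling. The 82 cytosolic ribosomal protein genes had a median of -0.0032, with RPL22L1 lower at -1.38, and the 81 nuclear genes of oxidative phosphorylation had a median of 0.17. With median centring these medians were 0.45 and 0.49. Of the oxidative phosphorylation genes 7 members were lower (8.64%, against 4.14% of all detected genes and 9.76% of the brightest bin) and 0 higher. Lowest were the complex I subunit NDUFS7 at -1.76, whose second probe was at 0.12, and ATP5G1 (ATP5MC1), the ATP synthase c subunit, at -1.47. The 285 LINC RNAs had a median of 0.02, with 5 lower (1.75%) and 1 higher (0.351%, against 1.71% of all detected genes). The 16 DNA and histone methylation writers had a median of 0.01, with UHRF1 at -1.88 and the maintenance methyltransferase DNMT1, which UHRF1 recruits, at -1.51. UHRF1 had 9.60 in mock and 7.80 with miR-30c-2-3p, with its second probe at -0.89. The 13 genes of the microRNA machinery had a median of 0.32, with 0 lower, and TNRC6C at 1.38 and AGO3 at 1.103 higher. Another AGO3 probe was at -0.49. DICER1 was at 0.62 and AGO2 at -0.08.

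**Figure D4:**
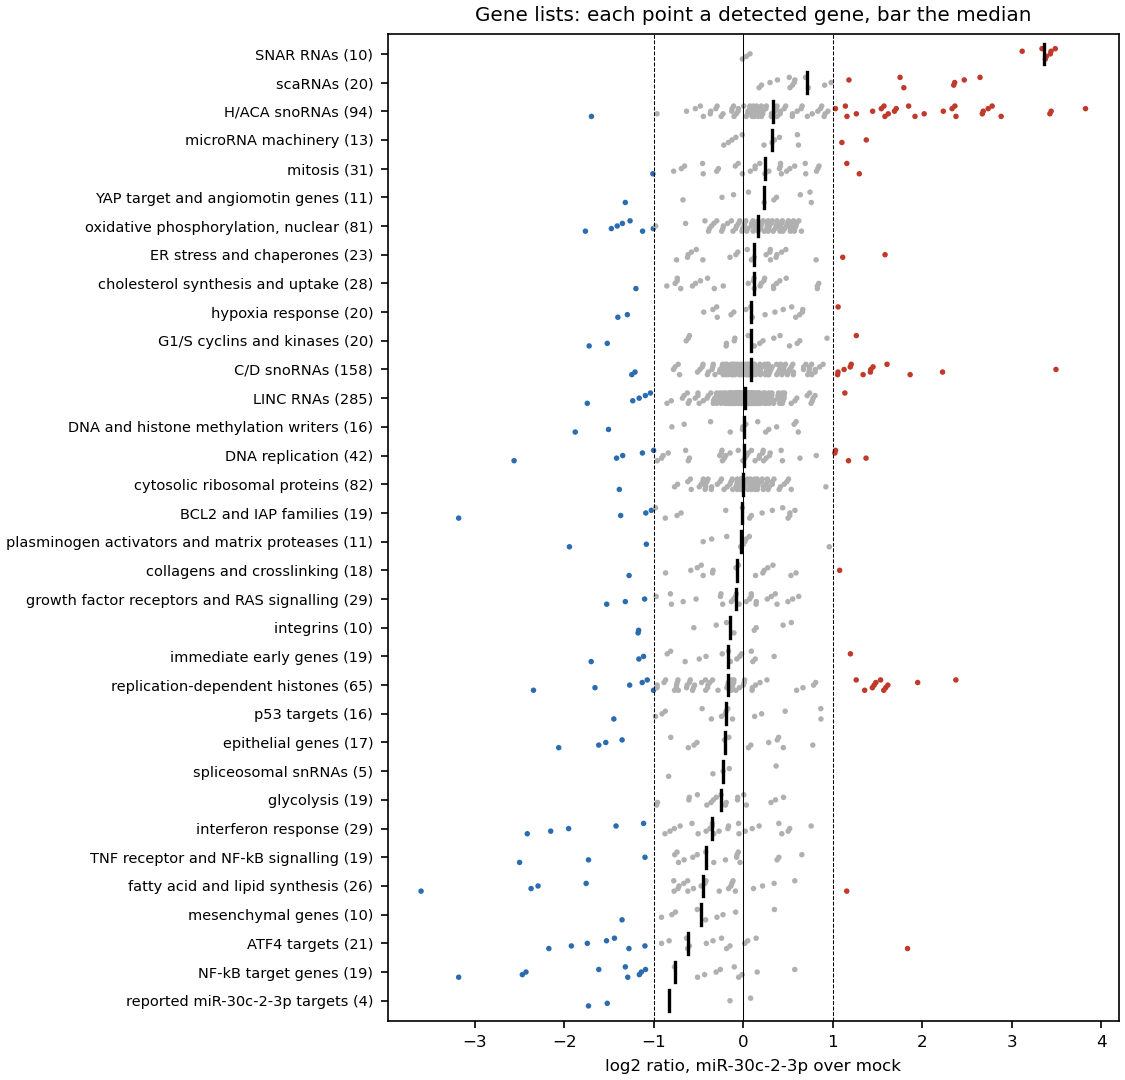
Log2 ratios of miR-30c-2-3p over mock (x axis) for the detected members of 34 gene lists (y axis, with the number detected). Each point is a gene, black bars are list medians, and dashed lines mark 2-fold. The NF-kB and ATF4 target lists stand lowest among the larger lists, with medians of -0.77 and -0.62, and the SNAR RNAs, scaRNAs and H/ACA snoRNAs stand highest, with medians of 3.36, 0.71 and 0.34.

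The higher genes were led by small non-coding RNAs. SnoRNAs guide the chemical modification of ribosomal RNA: the H/ACA class guides pseudouridylation and the C/D class guides methylation, while scaRNAs do the same for spliceosomal RNAs in Cajal bodies. Of 94 detected H/ACA snoRNAs, 26 were at least 2-fold higher (27.7%) and 1 was lower, with a median of 0.34. Of 158 C/D snoRNAs, 13 were higher (8.23%) and 2 were lower, with a median of 0.09. All 20 scaRNAs lay above 0, 7 were higher (35.0%), and the median was 0.71. At least 2-fold higher among all detected genes were 1.71%. The 5 spliceosomal snRNAs were not past the size in either direction, with a median of -0.22.

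The highest of all detected genes was SNORA48, an H/ACA snoRNA. Its level was 7.36 in mock and 11.18 with miR-30c-2-3p, a log2 ratio of 3.83. The other mock channels lay at 6.84 to 7.13 and the other miRNA channels at 6.71 to 6.87, so the miR-30c-2-3p channel stood alone. SNORD46, a C/D snoRNA, was at 3.50, with 7.46 in mock, 10.94 with the miRNA and 7.32 to 7.86 elsewhere. SNORA67 was at 3.44, SNORA80E at 3.43 and SNORA80A at 2.88. The highest scaRNA was SCARNA13 at 2.65, with 7.04 in mock and 9.63 with the miRNA. The small RNAs that went the other way were SNORA76C at -1.70, SNORD86 at -1.24 and SNORD47 at -1.21.

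No snoRNA or scaRNA was at least 2-fold higher on the other 3 PANC-1 arrays. There the H/ACA medians were -0.097 over 93 detected members for miR-30c-5p, -0.011 over 93 for miR-30a-5p and -0.095 over 94 for miR-30a-3p. All 26 higher H/ACA snoRNAs, all 13 C/D snoRNAs and all 7 scaRNAs were above each of the other 3 miRNA channels and all 4 mock channels. They had been chosen by the same miR-30c-2-3p level, so this is a description and supports nothing. Among all detected genes 8304 (40.1%) lay above the other 3 miRNA channels. Each of these small RNAs was also at least 2-fold above the mean of the other miRNA channels. The log2 differences were 1.21 to 4.38, 1.03 to 3.33 and 1.90 to 3.18 in the same order.

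Most snoRNAs are cut from introns of longer genes, so each small RNA was set against the gene whose span contains it. This look-up was chosen after the values were seen and did not use strand. Of 260 small RNAs well above background in the miR-30c-2-3p channel, 231 lay in 1 detected host gene. Of these, 41 were at least 2-fold higher, in 33 hosts. None of the 33 hosts was at least 2-fold higher, 3 were at least 2-fold lower, and their median was -0.09, with a range of -1.40 to 0.94. Among all detected genes 1.71% were higher and 4.14% lower, and in the brightest bin 2.13% and 9.76%. Counts this small among 33 hosts cannot be told apart from these shares. EIF4A1, a translation initiation helicase and the host of SNORA48 and SNORA67, was at -1.15. NOP56, a C/D snoRNP core protein and the host of SNORA51 (2.24) and SNORD56 (1.13), was at -1.25. Other small RNAs in EIF4A1 and NOP56 were not at least 2-fold higher. SNORD10 in EIF4A1 was at -0.12, and SNORD57, SNORD110 and SNORD86 in NOP56 were at 0.76, 0.50 and -1.24.

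**Figure D5:**
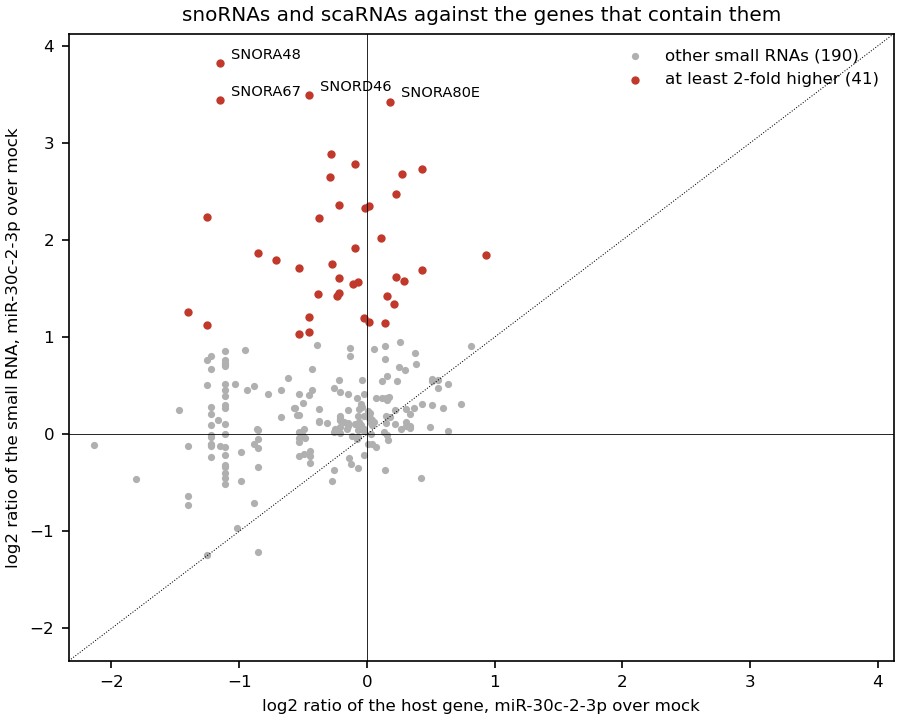
Log2 ratios of miR-30c-2-3p over mock for 231 snoRNAs and scaRNAs (y axis) against those of the gene whose span contains each (x axis). Hosts with several small RNAs repeat. The dotted line marks equal ratios, and red points are the 41 small RNAs at least 2-fold higher. All red points lie above the dotted line, between -1.40 and 0.94 on the host axis.

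SNAR RNAs, short RNAs transcribed by RNA polymerase III, were the other group among the highest genes. Of 10 detected, 7 were at least 2-fold higher (70.0%, against 1.71% of all detected genes), and the other 3 were dim and near 0. The 7 higher ratios ran from 3.12 for SNAR-A3 to 3.49 for SNAR-G1. These ratios rest partly on a low mock channel. SNAR-B2 had 12.98 in the mock channel of this array, but 14.73, 15.30 and 15.30 in the other mock channels, and 16.02 with miR-30c-2-3p against 15.18 to 15.58 with the other miRNAs. Its log2 ratio was 3.43 against its own mock and 0.59 against the mean of the other miRNA channels. In 6 of the 7 the mock of this array was below all other mock channels, by up to 1.75 on the log2 scale. All 7, chosen by this same level, were above every other PANC-1 channel with miR-30c-2-3p. Only 3 of them were 2-fold above the mean of the other miRNA channels, SNAR-G1 at 2.51, SNAR-F at 1.75 and SNAR-G2 at 1.03. Of the 9 genes that differed by 2-fold between this mock and that of miR-30c-5p, 5 were SNAR RNAs. The probes of SNAR-B2, SNAR-D, SNAR-G2 and SNAR-H share at least 50 of 60 bases in all 6 pairs, so these 4 genes cannot be told apart with certainty.

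Replication-dependent histone genes split by class, a division made after the values were seen. Over all 65 detected the median was -0.17, and against the mean of the other miRNA channels it was 0.33. Lower were 6 (9.23%, against 4.14% of all detected genes) and higher were 11 (16.9%, against 1.71%). Of 17 H2B genes, 10 were higher, against 1.71% of all detected genes, and 0 lower, with a median of 1.36. HIST1H2BK (H2BC12) was at 2.38, with 10.14 in mock and 12.53 with miR-30c-2-3p, and its other probe at 1.75. The medians of the other classes were -0.96 for 5 H1 genes, -0.39 for 17 H2A, -0.42 for 13 H3 and -0.42 for 13 H4 genes. HIST2H2AC (H2AC20) was the lowest, at -2.34. On the other arrays the H2B median was 0.20 to 0.25. Against the mean of the other miRNA channels H2B genes had a median of 1.03 and the other classes 0.037 to 0.57. H2B genes are near copies of each other, so the values of single H2B genes are uncertain.

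To see whether genes with a seed match were lower, the 60-base probes were searched, since they were the transcript sequence at hand. The letters searched on the transcript strand were TCTCCCA, the match to bases 2 to 8, and CTCCCAA, the match to bases 2 to 7 followed by A. They overlap in TCTCCCAA, the longest site. Of the 20703 brightest probes 197 (0.952%) held at least 1 of them. Probes of 4 lower genes are shown as 30-base stretches with the match in capitals, 2 of them with the longest site and 2 with the match to bases 2 to 8. CARHSP1, a cold shock domain protein, lies at chr16:8946813-8946842 on the minus strand, PPM1F, a phosphatase, at chr22:22273824-22273853 on the minus strand, CTSA, a lysosomal carboxypeptidase, at chr20:44527241-44527270 on the plus strand, and CRADD, a death domain adaptor, at chr12:94244217-94244246 on the plus strand (hg19, positions of the array design).
CARHSP1: tcagccatcttTCTCCCAAtaaatttttgt
PPM1F: aggcagTCTCCCAAggacccaccatgcaga
CTSA: agggTCTCCCAtagacagcctgggggcaag
CRADD: tactcagcagaTCTCCCAtgttggctcaac
The log2 ratios were -1.69 for CARHSP1, -1.01 for PPM1F, -1.59 for CTSA and -1.07 for CRADD. A match in a probe is a description and not a site, and a probe covers a small part of a transcript.

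Genes with a longer match had slightly lower medians on this array. The median log2 ratio was -0.10 for 30 genes with the longest site, -0.032 for 89 with the match to bases 2 to 8, -0.013 for 78 with bases 2 to 7 and A, -0.0079 for 302 with bases 2 to 7 and 0.014 for the 20204 with none. The difference between the 197 genes with a heptamer and the rest was -0.044, and no test of it could be made. Among the 197 genes 5.58% were at least 2-fold lower, against 4.13% of the rest. Genes with the reverse complement of the match to bases 2 to 8, TGGGAGA, had a median of 0.023 over 138 genes. The letters for the seed of miR-30a-3p, which was not transfected here, gave differences of -0.030 for 302 genes with a heptamer and -0.082 for 50 with the longest site on this array, against -0.044 and -0.12 for the strand transfected, and the letters of the guide strands gave -0.012 and 0.036. With the same miR-30c-2-3p letters on the other arrays, genes with a heptamer differed from the rest by 0.0026 after miR-30a-3p, 0.014 after miR-30c-5p and 0.012 after miR-30a-5p. Of the 857 lower genes 11 held a heptamer in the brightest probe (1.28%), and SREBF1, BIRC3, TRADD and CCNE1 were not among them.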

How the data were processed

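Gene expression was measured on 8 dual-channel Agilent arrays of 60-base probes, grouped by their labels. No column lacked a sample. Per the file headers, Feature Extraction 11.5.1.1 gave for each spot the mean intensity of both channels and the median intensity of the local background. The deposited files also give a log10 ratio per spot, red over green, that the software had corrected for background and dye, and the authors' value table repeats it. It was used only as an alternative, on the log2 scale. The number of arrays limits the precision.

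Using limma (3.58.1) in R 4.3.3, with files read by the package data.table, version 1.17.8, spot signals were taken through normexp background correction with an offset of 50, removal of control spots, loess within each array, removal of outlier spots and averaging over spots. The brightest probe over the 8 arrays stood for a gene name, and the gene was detected if this probe cleared the background in either channel. Channel levels were log2 intensities quantile normalised over the arrays. Later steps used pandas 2.3.3, numpy 2.4.6 and matplotlib 3.10.9 under Python 3.11.15. The steps were tested on simulated data.

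Genes named by rule had a symbol, a signal above background in both dyes, no saturated or outlier spot and no detected probe of the opposite direction, and the 12 lowest and 12 highest of these were taken. Up to 4 members of each of 34 gene lists furthest from 0 in the direction of its median, all members past 2-fold, KRT80 and HK2 were added where they were informative. Members and lists were chosen with earlier results of these data known. The lists overlap: BIRC3, TRADD, CCNE1, XBP1, EPAS1, AXL, BAX, BBC3, BIRC2, BIRC5, CDKN1A, SESN2 and LOX are among the genes on more than 1. Probe positions are hg19 as in the files. By name or accession, 23542 of 43317 gene names matched RefSeq, and current symbols stand in brackets where they differ. Paired replicates did not exist, and 9 alternative settings were tried. Some results are not reported here.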

Additional observations from a re-analysis of the deposited data

Results flagged for a closer look

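A gene was singled out when it lay at least 2-fold apart from mock in opposite directions on this array and on another PANC-1 array. Only the 12 lowest and 12 highest named genes and members of the lists written out gene by gene were searched. The counts are thus not those over all detected genes. Each direction rests on 1 array, and none of these differences was tested. With miR-30c-5p, 4 such genes were higher: CCL2 at 1.004 (log2), CCNE1 at 1.20, NFKBIA at 1.03 and JUN at 1.12. With miR-30c-2-3p the same genes were at -2.47, -1.52, -1.61 and -1.11. With miR-30a-3p, LXN was higher at 1.08 and OIP5 lower at -2.35, while with miR-30c-2-3p they were at -2.92 and 1.16. OIP5 encodes a centromere protein. Its levels in the 4 mock channels were 10.71 to 10.89, with 12.10 after miR-30c-2-3p and 8.39 after miR-30a-3p.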

How the results depend on the processing

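No paired analysis was possible because each miRNA was on 1 array, and no replicate could be left out. The count of lower genes was 857 and rose to 1402 with no background correction, 2113 with a normexp offset of 1 and 2452 by the scanner log ratio. The count of higher genes was 354 and became 546, 1076 and 1907 under the same settings and 718 with median centring. All 857 lower genes were also lower under the first 3 settings, 574 with median centring, 684 with the median over probes, 696 against the 4 mock channels and 538 against the other 3 miRNA channels. Dim signals limit these counts, since the offset sets how far their ratios can move. The difference for probes with a seed match moved from -0.044 to -0.11 with an offset of 1, to -0.13 by the scanner log ratio and to -0.12 for the longest site alone.

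List medians below 0 numbered 19 of 34 and 13 to 21 under the alternatives. The recomputed list medians changed sign 23 times, 12 of them from a median at least the spot SD from 0 and 11 from one nearer 0. Against the other 3 miRNA channels the lists that changed sign were G1/S genes (-0.031), endoplasmic reticulum stress (-0.0032), hypoxia (-0.22), integrins (0.014) and histones (0.33). With median centring they were glycolysis (0.088), collagens (0.094), integrins (0.029), growth factor receptors (0.080), cytosolic ribosomal proteins (0.45) and BCL2 and IAP families (0.092). Against the 4 mock channels they were collagens (0.020) and growth factor receptors (0.0047), and with no filter on dim probes integrins (0.014). The other changes were of lists within the spot SD of 0 that moved to values of -0.052 to 0.027, the DNA replication, methylation writer, BCL2 and IAP, and ribosomal protein lists. COL5A1 (-0.13) and KRT80 (-0.16) changed sign against the other miRNA channels. All 24 named genes stayed at least 2-fold the same way under 8 alternatives, and 20 against the other miRNA channels, where SNAR-A3, SNAR-B2, SNAR-D and SNAR-H did not. Of 98 list members past 2-fold, 24 fell short of it there. The cause was not tested.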
